A study of Mus musculus with 48 samples.

Results

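The genes described here encode 5 subunits of the cytokine receptors on which early B cell progenitors depend: Kit, Flt3, Il7r, Il2rg and Crlf2. They are the rows carrying those gene names among 21025 gene models, each read in all 30 RNA sequencing libraries of the series. IL2RG named 2 rows. The row of higher mean was used, since the accession of the other belongs to the neighbouring gene Gm614 (mean 0.673 RPKM, a read density per length of gene model and per library total). All libraries are from C57BL/6 mice, in a study of the transcription factor Ikaros, encoded by Ikzf1, in early B lymphopoiesis. Control pro-B cells were Ikzf1(fl/+) Cd79a(Cre/+) and deleted pro-B cells Ikzf1(fl/-) Cd79a(Cre/+), with 2 libraries each. The c-Kit-high pro-B cells had the same 2 genotypes, and the third pair of groups carried Rag2(-/-) in addition, again with 2 libraries per group. Control cells therefore also carried the Cre, which is driven by the B-lineage gene Cd79a, and 1 floxed Ikzf1 allele. Total pre-B cells were Wild-type (2 libraries). Pre-pro-B cells were all Ebf1(-/-), so they lack a factor needed for entry into the B lineage, and carried an empty vector, the control construct Ren713, or the Ikzf1 knock-down constructs Ik4056 or Ik2709 (4 libraries each). The labels give no age, culture condition or sort other than c-Kit high.

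KIT and FLT3 are receptor tyrosine kinases for stem cell factor and FLT3 ligand. FLT3 is a receptor of lymphoid-primed progenitors and is switched off when cells commit to the B lineage through PAX5, whereas KIT persists on early pro-B cells and is lost at the pre-B stage. The IL-7 receptor is a pair of the alpha chain, encoded by Il7r, and the common gamma chain, encoded by Il2rg and shared with the receptors for IL-2, IL-4, IL-9, IL-15 and IL-21. It signals through JAK1, JAK3 and STAT5 and sustains mouse pro-B cells. Crlf2 encodes the receptor subunit for thymic stromal lymphopoietin (TSLP), which binds together with the same alpha chain.

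The promoters of the 3 members of the IL-7 and TSLP receptors are shown because each of these genes was called in a deletion (Il7r, Crlf2) or in the knock-down (Il7r, Il2rg). Kit and Flt3, also called in deletions, are given by their matches. Each run is the 250 bases before the RefSeq start (GRCm38.p6), read 5′ to 3′ on the gene's strand; all 5 genes matched the table. They lie on the minus strand at chr15:9529877-9530126 (Il7r), chrX:101268256-101268505 (Il2rg) and chr5:109558994-109559243 (Crlf2). Capitals mark TGGGAA, a core of the Ikaros motif, and GGAAG, a core of the Ets motif, on either strand.
Il7r: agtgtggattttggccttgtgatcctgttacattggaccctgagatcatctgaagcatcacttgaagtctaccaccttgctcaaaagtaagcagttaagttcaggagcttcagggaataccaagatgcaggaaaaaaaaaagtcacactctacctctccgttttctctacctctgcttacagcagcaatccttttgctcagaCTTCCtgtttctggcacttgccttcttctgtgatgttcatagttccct
Il2rg: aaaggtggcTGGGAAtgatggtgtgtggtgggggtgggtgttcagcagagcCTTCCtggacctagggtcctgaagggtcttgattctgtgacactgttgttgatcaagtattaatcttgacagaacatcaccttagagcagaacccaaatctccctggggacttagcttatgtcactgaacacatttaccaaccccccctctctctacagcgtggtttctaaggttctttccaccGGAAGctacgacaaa
Crlf2: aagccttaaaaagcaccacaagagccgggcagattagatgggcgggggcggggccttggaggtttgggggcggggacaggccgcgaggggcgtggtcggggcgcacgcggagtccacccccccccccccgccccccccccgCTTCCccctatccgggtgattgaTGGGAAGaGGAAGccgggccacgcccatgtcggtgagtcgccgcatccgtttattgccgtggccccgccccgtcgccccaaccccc
TGGGAA was found at base -241 of Il2rg and base -86 of Crlf2, counted back from the start, and in none of the windows of Kit, Flt3 and Il7r. In all, 2 of the 5 windows held it, against 21.6% of 32851 promoter windows of the same length. GGAAG was found in all 5 windows, against 64.1% of promoters. On the opposite strand it lies at base -48 of Il7r, -199 of Il2rg and -109 of Crlf2. On the gene's strand it lies at -15 of Il2rg and at -84 and -78 of Crlf2, the match at -84 overlapping the TGGGAA. These matches describe the letters and were not tied to binding.

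Ikzf1 RNA was set beside the labels. It was 56.4 and 59.2 RPKM in pro-B controls and 45.3 and 48.9 after deletion, and the deleted libraries also lay below their controls in c-Kit-high and Rag2-null cells. These values show less Ikzf1 RNA after deletion, not its absence. The knock-down lowered Ikzf1 RNA from a mean of 125 to 42.9 RPKM (log2 -1.57, limma adjusted p = 6.54e-06). Read totals, recovered from the RPKM steps in 26 of 30 libraries, ran from 2.31 M (mega) in c-Kit-high control 2 to 36.1 M; in the other 4 they were not resolved. Pax5, a factor of B-lineage commitment, was 70.6 to 331 RPKM in pro-B and pre-B libraries and at most 0.296 in the Ebf1(-/-) pre-pro-B libraries. The pre-B libraries carried RNA of granulocytes: the 9 neutrophil, monocyte and macrophage markers summed to 6323 and 6531 RPKM, against 124 to 584 in c-Kit-high controls, 168 to 287 in c-Kit-high deleted cells and 8.38 to 13.8 in pro-B libraries. The labels do not state whether libraries of a group stem from different mice or cultures, so every p-value here reflects library-to-library spread that could be technical.

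The 5 genes had unlike ranges. Flt3 group means spanned 3714-fold, Kit 21.8-fold, Il7r 15.0-fold, Crlf2 2.61-fold and Il2rg 2.18-fold. Because RPKM is per length, the members can also be ranked within a group. In pro-B controls the order was Il2rg (40.0 RPKM), Crlf2 (28.2), Kit (19.8), Il7r (8.21) and Flt3 (0.166). In c-Kit-high controls Il7r led at 84.2 RPKM, and in the pre-pro-B cells with empty vector Flt3 led at 158. Bulk RNA cannot tell fewer cells with a transcript from less transcript per cell.

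**Figure D1:**
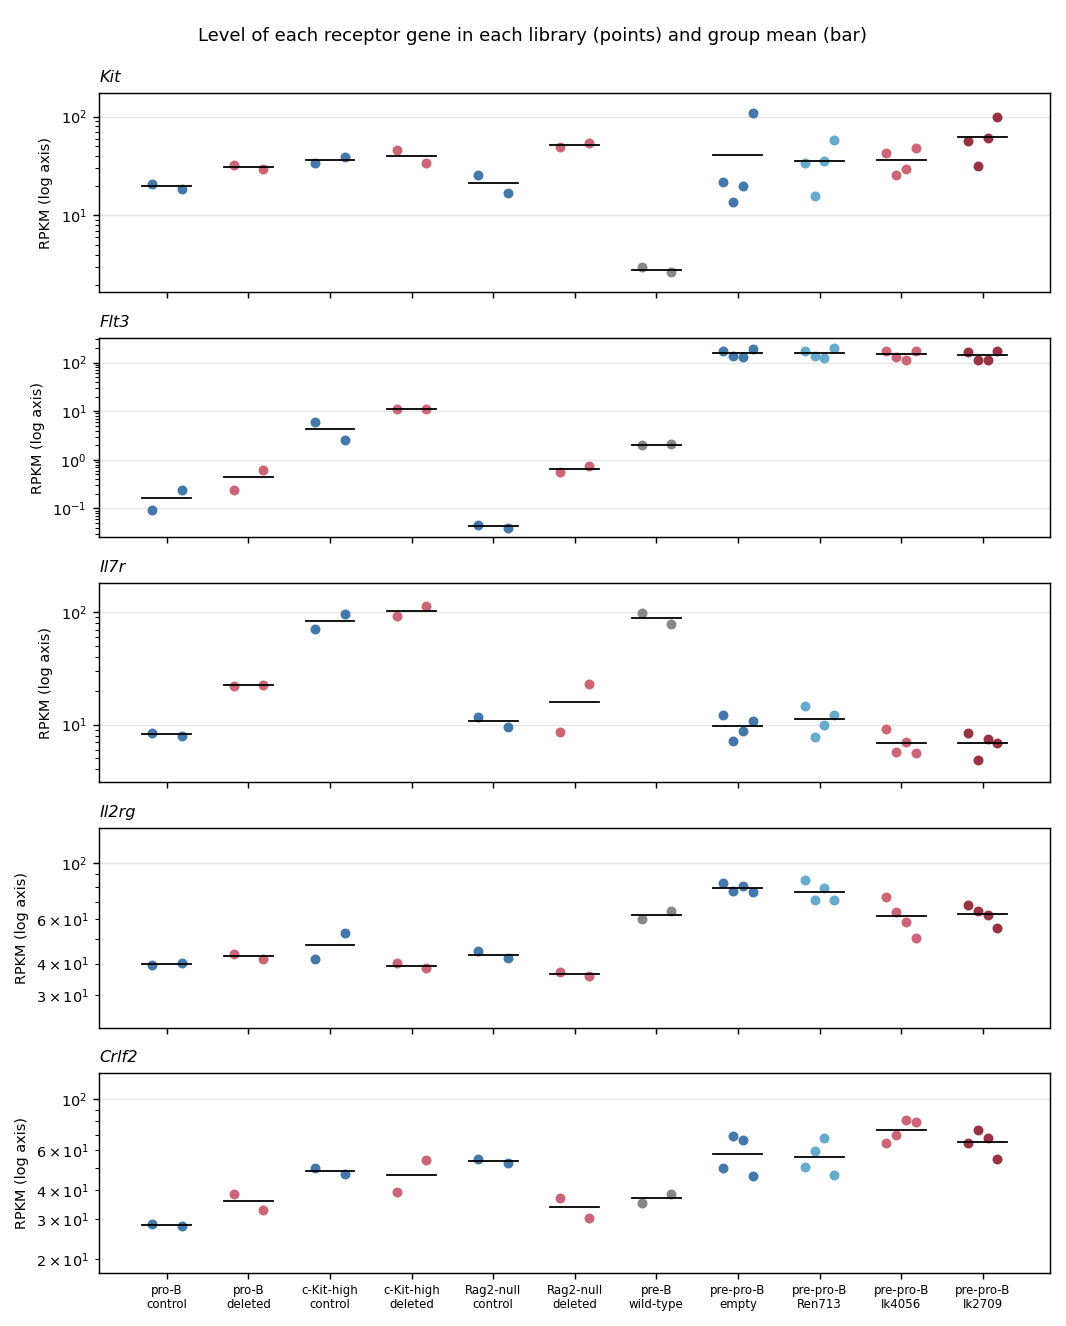
RPKM of each receptor gene (y axes, log scale) in each of 30 libraries (points) of 11 groups (x axis); bars are group means, blue marks controls, red marks cells with deleted or knocked-down Ikzf1, and grey marks wild-type pre-B cells. Flt3 runs from 0.0405 to 199 RPKM over the libraries, while Il2rg stays between 35.8 and 85.6.

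Flt3, the receptor of uncommitted lymphoid progenitors, was abundant only in the pre-pro-B libraries among those measured. Its level there was 125 to 199 RPKM in the 8 control libraries (median 155) against 0.0940 and 0.239 in pro-B controls, a 956-fold ratio of means (log2 7.08, SE 0.23, limma adjusted p = 1.0e-17). Il2rg was 78.4 ± 5.27 (SD, n = 8) against 40.0 ± 0.612 RPKM (n = 2), and Crlf2 56.9 ± 9.80 against 28.2 ± 0.458. These 3 of 5 genes were called higher and none lower, with 55.5% of all genes called in either direction and 25.3% higher. Kit (log2 0.60, adjusted p = 0.315) and Il7r (log2 0.28, adjusted p = 0.375) were not called. Stage, the Ebf1 genotype, the constructs and the library runs differ together here and cannot be told apart.

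Within the pro-B compartment, the c-Kit-high control cells had more Il7r, Flt3 and Crlf2 RNA than total pro-B controls. Il7r was 71.2 and 97.2 against 8.49 and 7.93 RPKM, a 10.3-fold ratio (log2 3.19, limma adjusted p = 4.5e-05). Flt3 was 6.05 and 2.58 against 0.0940 and 0.239 (log2 2.11, limma adjusted p = 5.2e-05), and Crlf2 50.1 and 46.9 against 28.6 and 27.9 (log2 0.76, limma adjusted p = 0.00136). The groups did not overlap in any of the 3. Background calls in this comparison were 50.8% of genes, 27.8% higher, so 3 of the 4 members tested being called higher is read against a comparison in which calls were common. Il2rg, at 41.7 and 52.9 against 39.6 and 40.4, was not called (adjusted p = 0.129). Kit was 34.2 and 39.2 against 20.9 and 18.7 RPKM; the cells were sorted on its protein, so this is a description. The c-Kit-high and total pro-B controls also sit in different ranges of library numbers, which cannot be told apart from the sort. The 6 dendritic markers, of cells that carry FLT3, summed to at most 0.785 RPKM in c-Kit-high controls, with Clec9a at 0, and at most 0.13 in pro-B controls. The 6 stem and progenitor markers summed to 19.5 and 35.0 against 6.18 and 9.30, and the granulocyte markers differed as given above; their part in these differences was not tested.

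Wild-type pre-B cells had high Il7r and little Kit. Kit was 3.00 and 2.67 RPKM, below every other library, and Il7r was 99.0 and 78.3, overlapping the c-Kit-high controls (log2 0.08, interval -0.67 to 0.84). Against total pro-B controls, 4 genes were called higher and Kit lower (log2 -2.44, SE 0.19, limma adjusted p = 2.4e-07), where 68.8% of all genes were called, 31.9% higher and 36.9% lower. Of these the Crlf2 difference (28.6 and 27.9 against 35.2 and 38.6 RPKM, log2 0.37, adjusted p = 0.0442) lost its call in 7 of 13 alternatives, among them leaving out any 1 of the 4 libraries (adjusted p 0.0701 to 0.186). The pre-B libraries also sit in another range of library numbers than the pro-B controls, which cannot be told apart from stage. Genotype cannot be told apart from stage either, since pre-B cells were Wild-type and pro-B controls Ikzf1(fl/+) Cd79a(Cre/+). The c-Kit-high controls shared that genotype, so the same limit holds for the comparison with them. Against c-Kit-high controls, Flt3 fell from 6.05 and 2.58 to 1.99 and 2.14 RPKM (log2 -0.72, limma adjusted p = 0.0380), and Il2rg rose from 41.7 and 52.9 to 59.9 and 64.5 (log2 0.40, limma adjusted p = 0.0146). That is 2 called of the 4 members tested, 1 each way, with 49% of all genes called, 19.2% higher and 29.8% lower. The Flt3 call rests on c-Kit-high control 1: without that library the difference was -0.23 (adjusted p = 0.398), and it was also lost without either pre-B library and under 7 other settings, with log2 differences of -0.91 to -0.46. The Il2rg call was lost without c-Kit-high control 1 (log2 0.23) and without pre-B library 2 (log2 0.34). Pre-B libraries held 3 of 8 mast cell and basophil markers at a mean of at least 1 RPKM (sum 36.7 and 44.9, mostly Mcpt8, with Mcpt4 at 0), all 9 granulocyte markers and 1 of 6 dendritic markers (sum 4.81 and 4.84); their part in Kit, Flt3 and Il7r was not tested.

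Removal of Rag2, the recombinase gene, went with more Crlf2. Among control pro-B cells it was 54.8 and 52.8 RPKM with Rag2(-/-) and 28.6 and 27.9 without (log2 0.91, SE 0.15, limma adjusted p = 9.5e-04), with no overlap. It was the only member called of 5, where 31.6% of all genes were called and 10.9% were higher. The 2 genotypes also sit in different ranges of library numbers, which cannot be told apart from Rag2.

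Deletion of Ikzf1 raised Kit and Il7r in total pro-B cells, Flt3 in c-Kit-high cells and Kit in Rag2-null cells, and lowered Crlf2 in Rag2-null cells. In total pro-B cells 2 of 5 members were called, both higher, where 23.4% of all genes were called and 13.5% were higher. In c-Kit-high cells 1 of 5 was called, higher, against 17.2% of all genes, 11.6% higher. Only 1 control and 1 deleted c-Kit-high library have consecutive numbers. The others sit in different ranges of library numbers, which cannot be told apart from deletion. In Rag2-null cells 1 of 5 was called higher and 1 lower, against 22.3% of all genes, 15.5% higher and 6.84% lower. With 5 genes these shares are near the background, and the description below is of each gene.

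**Figure D2:**
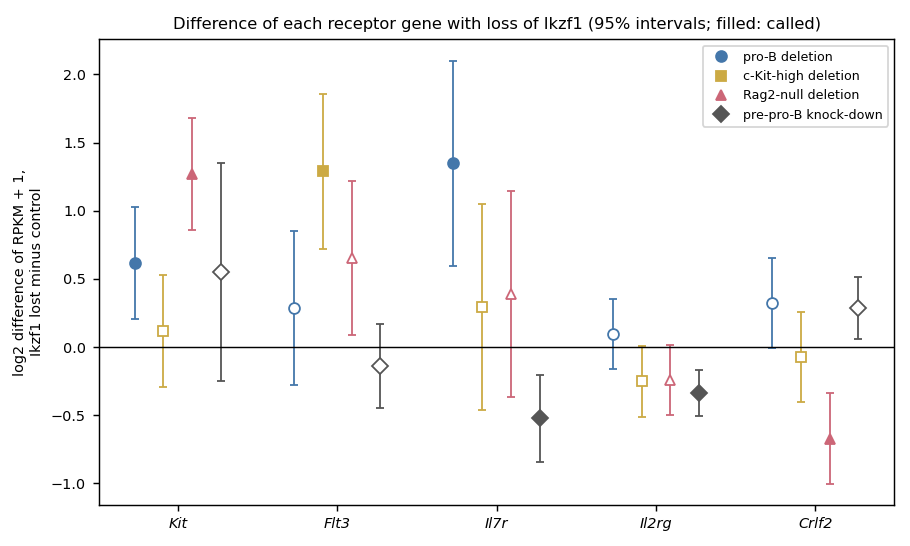
Log2 difference of RPKM + 1 (y axis) between cells without or with less Ikzf1 and their controls for each gene (x axis), in 3 deletions and the knock-down; bars are limma 95% intervals and filled symbols are called at an adjusted p under 0.05. Kit lies above 0 in all 4 settings and is called in 2, while Il7r is called higher in pro-B cells and lower in the knock-down.

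Kit was 20.9 and 18.7 RPKM in pro-B controls and 32.6 and 29.4 after deletion. Both deleted libraries lay above both controls, a 1.56-fold ratio of means (log2 0.62, SE 0.19, limma adjusted p = 0.0316). In Rag2-null cells it went from 25.9 and 16.9 to 49.3 and 54.4 RPKM, 2.43-fold and again without overlap (log2 1.27, SE 0.19, limma adjusted p = 4.2e-04). In c-Kit-high cells, 34.2 and 39.2 stood against 46.2 and 34.2 after deletion. The groups overlapped (log2 0.12, interval -0.29 to 0.53). Both were sorted on the KIT protein, so a difference from the c-Kit-high effect on Kit cannot be told apart from the sort. The Rag2-null effect exceeded the c-Kit-high effect by 1.15 (limma adjusted p = 0.0238, 6.33% of genes called), but not the pro-B effect (0.65, adjusted p = 0.144; 0.95 and called without Rag2-null control 1). The pro-B call was lost when any of its 4 libraries was left out, with adjusted p of 0.0766 to 0.173 and a log2 difference of 0.54 to 0.69. With all 30 libraries in one fit neither Kit call held (adjusted p = 0.61 in pro-B and 0.202 in Rag2-null cells), and the difference between settings was called in 9 of 17 alternatives. Mast cell and basophil markers were low but rose beside this. In pro-B cells the 8 markers summed to 0.0362 and 0.245 RPKM in controls and 0.402 and 1.08 after deletion, mostly Hdc. Cpa3, Cma1, Fcer1a, Ms4a2, Tpsb2 and Mcpt4 were at 0 in both pro-B groups. In Rag2-null cells the 8 markers summed to 0.156 and 0.337 in controls and 0.974 and 1.82 after deletion. The 4 matched erythroid markers, of cells that carry KIT early, summed to 0.319 and 0.414 against 0.702 and 1.76 in pro-B cells. In Rag2-null cells they were 0.671 and 0.673 against 0.516 and 0.817. The 6 stem and progenitor markers, of other cells with KIT, rose with Kit in Rag2-null cells. Their sum was 3.93 and 11.2 RPKM in controls and 115 and 156 after deletion, mostly Ly6a (mean 6.36 and 104). In total pro-B cells, where Kit was also called, the sums overlapped, at 6.18 and 9.30 against 7.09 and 13.6. The part of these marked cells in Kit was not tested.

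Flt3 was low in committed cells, and in each of the 3 settings both deleted libraries lay above both controls. The c-Kit-high controls had 6.05 and 2.58 RPKM and the deleted libraries 11.3 and 11.2, 2.61-fold (log2 1.29, SE 0.26, limma adjusted p = 0.00418). The deleted libraries lay close together, above both controls, of which the lower has the fewest reads of the 26 libraries with a resolved total and 22 reads of Flt3. The only control and deleted library with consecutive numbers differed by 0.80. The others sit in different ranges of library numbers, which cannot be told apart from deletion. With a pseudocount of 0.1 the call was lost (limma adjusted p = 0.0552). In Rag2-null cells 5 and 4 reads (0.0455 and 0.0405 RPKM) stood against 69 and 91 (0.555 and 0.730), a 14.9-fold ratio of means without overlap. On log2(RPKM + 1) that was 0.65 (limma adjusted p = 0.0963, not called), and with a pseudocount of 0.1 it was 2.37 (adjusted p = 0.00393). In total pro-B cells 4 and 9 reads stood against 11 and 26, 0.0940 and 0.239 against 0.241 and 0.627 RPKM; the groups all but met and the difference was not called (log2 0.29, adjusted p = 0.489). Differences of effect between settings were not called for Flt3, the nearest being c-Kit-high against pro-B (1.00, adjusted p = 0.139, 6.7% of genes called). That value depends on which c-Kit-high controls enter. Without control 1 the difference was larger, at 1.49, and rested on control 2 with its 22 reads of Flt3. It ranged from 0.51 to 1.49 on leaving out 1 library. Rag2-null minus c-Kit-high became -1.12 without control 1. Stem and progenitor markers moved with these values. Their sum, led by Ly6a in each of these groups, was 19.5 and 35.0 against 111 and 133 RPKM in c-Kit-high cells. In Rag2-null cells it was 3.93 and 11.2 against 115 and 156, Cd34 being 0.0127 and 0.0425 against 39.8 and 20.1. The 6 dendritic markers summed to 1.22 and 1.84 RPKM in c-Kit-high deleted cells and 0.73 and 1.09 in Rag2-null deleted cells, none at a mean of 1 RPKM. Granulocyte markers summed to 10.1 and 27.2 against 43.3 and 47.8 in Rag2-null cells, with Elane, S100a9, Ngp and Csf3r at 0. The part of these cells in Flt3 was not tested.

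Il7r, the IL-7 receptor alpha chain, was 8.49 and 7.93 RPKM in pro-B controls and 22.1 and 22.7 after deletion. The 2.73-fold difference was far wider than the spread of either pair (log2 1.35, SE 0.34, limma adjusted p = 0.0159). Its call was also lost when any 1 of the 4 libraries was left out (adjusted p 0.0687 to 0.0855), with log2 differences of 1.30 to 1.39. In c-Kit-high cells, already higher at 71.2 and 97.2 RPKM, the deleted libraries were 92.6 and 113 and overlapped them (log2 0.30, interval -0.46 to 1.05). In Rag2-null cells controls were 11.8 and 9.58, and the deleted libraries fell on both sides of them at 8.63 and 23.1. Their difference, 0.39 (adjusted p = 0.482), was 1.05 (called) without deleted library 1 and -0.27 without deleted library 2. The interaction did not set the c-Kit-high or Rag2-null effects apart from the pro-B effect (-1.05, adjusted p = 0.246, and -0.96, adjusted p = 0.257). With the compared libraries alone the first was called (adjusted p = 0.0253), and without Rag2-null deleted library 2 the second was (-1.62, adjusted p = 0.00305), its values on leaving out 1 library running from -1.62 to -0.29. Of T and innate lymphoid markers, which mark other cells with the receptor, Cd3e, Cd3g and Cd8a were at 0 in pro-B cells of both genotypes. The 8 markers summed to 138 to 146 RPKM in controls and 55.2 to 65.7 after deletion, nearly all Thy1. Sums of other markers changed beside the pro-B rise of Il7r. The 5 pre-B and later markers summed to 49.3 and 57.7 RPKM in controls and 527 and 569 after deletion, mostly Cd74. The list did not rise as a whole: 2 were called higher and 1 lower (median log2 -0.45, 23.4% of all genes called). Those at a mean of at least 1 RPKM went from 4 to 2, with Cd2 at 0 in both deleted libraries. Wild-type pre-B cells had Il7r at a mean of 88.7. The 4 NK markers summed to 2.04 and 2.47 against 18.8 and 20.2, nearly all Nkg7, with Ncr1 and Klrd1 at 0 throughout. Of 12 pro-B lineage markers 7 were lower and 1 higher, where 23.4% of all genes were called and 13.5% were higher. Their part in Il7r was not tested.

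Il2rg, the common gamma chain, was not called in any of the 3 deletions. It was 39.6 and 40.4 RPKM in pro-B controls and 43.8 and 41.8 after deletion (log2 0.10, interval -0.16 to 0.35). In c-Kit-high cells 41.7 and 52.9 stood against 40.3 and 38.3 (log2 -0.25, adjusted p = 0.176), and in Rag2-null cells 44.9 and 42.0 against 37.2 and 35.8 (log2 -0.24, adjusted p = 0.174). The deleted libraries lay below their controls in both, without overlap, but neither difference was called. The c-Kit-high difference was called without control 1 (log2 -0.42, adjusted p = 0.0319), and the Rag2-null difference after median-ratio scaling (log2 -0.39, adjusted p = 0.0315).

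Crlf2, the TSLP receptor subunit, fell with deletion in Rag2-null cells. The Rag2-null controls had 54.8 and 52.8 RPKM and the deleted libraries 37.0 and 30.2, a ratio of 0.624 without overlap (log2 -0.67, SE 0.15, limma adjusted p = 0.00736). In pro-B cells 28.6 and 27.9 stood against 38.5 and 32.9 (log2 0.32, adjusted p = 0.152), and in c-Kit-high cells 50.1 and 46.9 against 39.2 and 54.1, which overlapped (log2 -0.07). The Rag2-null effect was lower than the pro-B effect by 0.99 (limma adjusted p = 0.00878, 13.1% of genes called), and its difference from the c-Kit-high effect was not called (-0.60, adjusted p = 0.127). After deletion Crlf2 was 33.6 ± 4.78 RPKM in Rag2-null and 35.7 ± 3.99 in total pro-B cells (SD, n = 2), with overlapping ranges. The Rag2-null call was lost without deleted library 2 (log2 -0.53, adjusted p = 0.0803).

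Of the 4 ligand genes, Tslp and Flt3l passed the filter on low values. Tslp, the gene of the CRLF2 ligand, passed only through the 4 c-Kit-high and Rag2-null deleted libraries, so its values are a description. It was 0.599 and 0 RPKM in c-Kit-high controls and 4.38 and 4.97 after deletion, and 0.300 and 0.139 against 2.87 and 2.25 in Rag2-null cells, without overlap in either. In pro-B cells it was 0.323 and 0 against 0.844 and 0.132, which overlapped. Flt3l, the FLT3 ligand gene, went from 2.36 and 2.79 to 3.84 and 5.37 RPKM in c-Kit-high cells (log2 0.64, limma adjusted p = 0.0264) and was 11.9 and 12.9 in pre-B cells. Il7 was at most 0.244 RPKM in any library, and Kitl, the KIT ligand gene, at most 1.67, in a pro-B control.

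**Figure D3:**
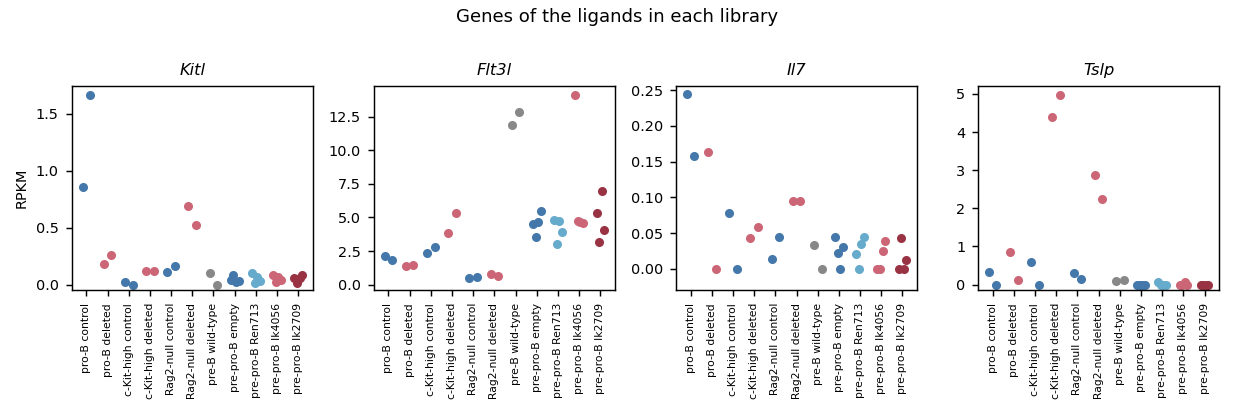
RPKM (y axes, linear) of the 4 ligand genes in each of 30 libraries (points) of 11 groups (x axis; colours as in the plot of receptor levels). Tslp is at 4.38 and 4.97 in c-Kit-high and 2.87 and 2.25 in Rag2-null deleted libraries and below 1 in every other library.

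Genes acting downstream moved in both directions. Of 16 IL-7 receptor signalling genes, 4 were higher and 3 lower in pro-B cells (median log2 0.05, all genes 0.03), 3 and 3 in c-Kit-high cells (-0.15, all genes 0.03), and 9 and 3 in Rag2-null cells (0.46, all genes 0.06). Of all genes, 23.4%, 17.2% and 22.3% were called in these 3 comparisons. Ptpn6, the phosphatase SHP-1, rose 1.98 on the log2 scale in pro-B cells, from 84.6 to 338 RPKM (limma adjusted p = 6.9e-07), and 1.30 in c-Kit-high cells. The feedback inhibitor genes differed. Socs2 rose from 21.1 to 73.5 RPKM (log2 1.79, limma adjusted p = 1.0e-05) and Cish from 19.1 to 55.1 (log2 1.55) in c-Kit-high cells. Socs3 fell by 1.72 in pro-B cells, Socs1 fell by 1.27 in Rag2-null cells, and Jak3, the kinase bound to the gamma chain, fell by 0.94 in Rag2-null cells. Il4ra, which pairs with the gamma chain in the IL-4 receptor, rose in all 3 deletions, by 0.69, 1.01 and 1.59. It was among 5 tested genes of receptors related to the gamma chain, of which 1 was higher in each deletion and 1, Il21r, lower in pro-B cells.

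Of 25 KIT and FLT3 signalling genes, 3 were higher and 3 lower in pro-B cells (median log2 0.10), 3 and 2 in c-Kit-high cells (0.08), and 5 and 1 in Rag2-null cells (0.27), which are shares near those of all genes. Plcg1, a phospholipase downstream of both receptors, fell from 36.4 to 10.6 RPKM in pro-B cells and from 80.1 to 35.7 in c-Kit-high cells. Gab1, an adaptor, rose from 2.49 to 10.6 RPKM in Rag2-null cells. Among 15 other blood cytokine receptor genes, 4 were higher and 4 lower in pro-B cells (median log2 0.00), 3 and 0 in c-Kit-high cells (0.21), and 6 and 1 in Rag2-null cells (0.41). Of all genes, 23.4%, 17.2% and 22.3% were called in these 3 comparisons, and 13.5%, 11.6% and 15.5% were higher. Csf1r, the receptor for macrophage colony-stimulating factor, rose in all 3, to 2.09, 8.35 and 3.37 RPKM. Of 24 transcription factor genes, 7 were higher and 5 lower in pro-B cells (median log2 -0.02), 4 and 4 in c-Kit-high cells (0.09), and 5 and 2 in Rag2-null cells (0.21). The same shares of all genes stand beside these counts. In pro-B cells Foxo1, an activator of Il7r, fell from 42.2 to 10.9 RPKM (log2 -1.88, limma adjusted p = 3.0e-06), while Il7r rose. Lmo2, a progenitor factor, rose from 6.14 to 59.4 RPKM there.

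Knock-down of Ikzf1 in pre-pro-B cells lowered both chains of the IL-7 receptor. In the fit as designed 2 of 5 members were called, Il7r and Il2rg, both lower, where 19.4% of all genes were called and 6.04% were lower. The library numbers form 4 consecutive runs, each holding 1 library per construct, and libraries of a run deviated together, so the fit with the run as a replicate block is also given. With that block 4 of the 5 were called: Il7r, Il2rg and Flt3 lower and Crlf2 higher, but 51.9% of all genes were. Against the controls, 18.9% of genes were called for Ik4056 alone and 11.7% for Ik2709 alone, and 51% and 37.8% with the block.

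Il7r in runs 1 to 4 was 12.2, 7.12, 8.76 and 10.8 RPKM with the empty vector and 14.8, 7.75, 9.93 and 12.1 with Ren713. The hairpin libraries had 9.23, 5.70, 7.00 and 5.60 (Ik4056) and 8.36, 4.89, 7.49 and 6.93 (Ik2709). The ranges overlapped across runs, but within a run each hairpin library lay below both controls. The mean difference was -0.52 (SE 0.15, limma adjusted p = 0.0208), and it lay between -0.33 and -0.78 in the 4 runs. Its adjusted p without run 4, a setting chosen after seeing the data, was 0.125 (log2 -0.44), and 5.2e-05 with the block too; on the TPM scale, where each library sums to 1 M, it was 0.0737 (log2 -0.54). Neither hairpin alone was called without the block (adjusted p = 0.0575 for Ik4056 and 0.0897 for Ik2709), and both were with it.

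Il2rg was 83.5, 77.7, 81.4 and 76.5 RPKM with the empty vector, 85.6, 71.2, 79.9 and 71.4 with Ren713. The hairpin libraries had 73.6, 64.0, 58.5 and 50.4 (Ik4056) and 68.2, 64.5, 62.5 and 55.2 (Ik2709). All but 1 of the 8 hairpin libraries lay below every control library. The log2 difference was -0.34 (SE 0.08, limma adjusted p = 0.0054), lower in 4 of 4 runs, and each hairpin alone was called (adjusted p = 0.0163 for Ik4056 and 0.0393 for Ik2709). Without the block the Ik2709 call was lost in 8 of 12 fits that left out 1 library (adjusted p 0.0561 to 0.145), with median-ratio scaling (0.0615), on the TPM scale (0.0766) and without run 4 (0.0529). The Ik4056 call was lost without its library of run 4 (adjusted p = 0.0767). With the block both were called (adjusted p = 4.8e-05 and 1.9e-04).

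Crlf2 was 50.0, 68.8, 66.1 and 46.2 RPKM with the empty vector, 50.3, 59.5, 68.0 and 46.4 with Ren713. The hairpin libraries had 64.4, 69.7, 81.2 and 79.3 (Ik4056) and 64.5, 73.5, 67.6 and 54.6 (Ik2709). Hairpin means were above control means in 4 of 4 runs. The difference of 0.29 was not called without the block (limma adjusted p = 0.0736) and was called with it (adjusted p = 0.0015) and after quantile normalization (0.31, adjusted p = 0.0341), although the ranges overlapped. With the block the call held for Ik4056 alone (log2 0.38, adjusted p = 0.00087) and not for Ik2709 (0.20, adjusted p = 0.0608). Flt3 was 125 to 199 RPKM in controls and 112 to 177 with hairpins. Its difference of -0.14 was small and lower in 4 of 4 runs (adjusted p = 0.606, and 0.0063 with the block), and with the block Ik2709 alone was called (-0.16, adjusted p = 0.0104).

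Kit varied most. It was 21.9, 13.8, 20.0 and 108 RPKM with the empty vector, 33.9, 15.8, 35.3 and 57.9 with Ren713. The hairpin libraries had 42.5, 25.8, 29.8 and 48.5 (Ik4056) and 56.8, 31.4, 61.0 and 98.1 (Ik2709). Each of the 4 constructs had its highest Kit in run 4, where the empty vector library exceeded both hairpin libraries. Hairpins minus controls was 0.83, 0.90 and 0.66 in runs 1 to 3 and -0.19 in run 4. The mean, 0.55, was not called (limma adjusted p = 0.374, and 0.0579 with the block). Ik2709 alone was called with the block (0.89, adjusted p = 0.0252) and not without it (adjusted p = 0.304). Without the empty vector library of run 4 the mean difference was 0.86 (adjusted p = 0.0356), and without run 4 it was 0.80 (adjusted p = 0.0296). Ik2709 was above Ik4056 in 4 of 4 runs, by 0.27 to 1.01, and this difference was not called (adjusted p = 0.850, and 0.153 with the block). No member was called between the hairpins, where 3.33% of genes were called, nor between the controls, where limma called 0 genes, 9 with the block, and 58 had an unadjusted p under 0.05.

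**Figure D4:**
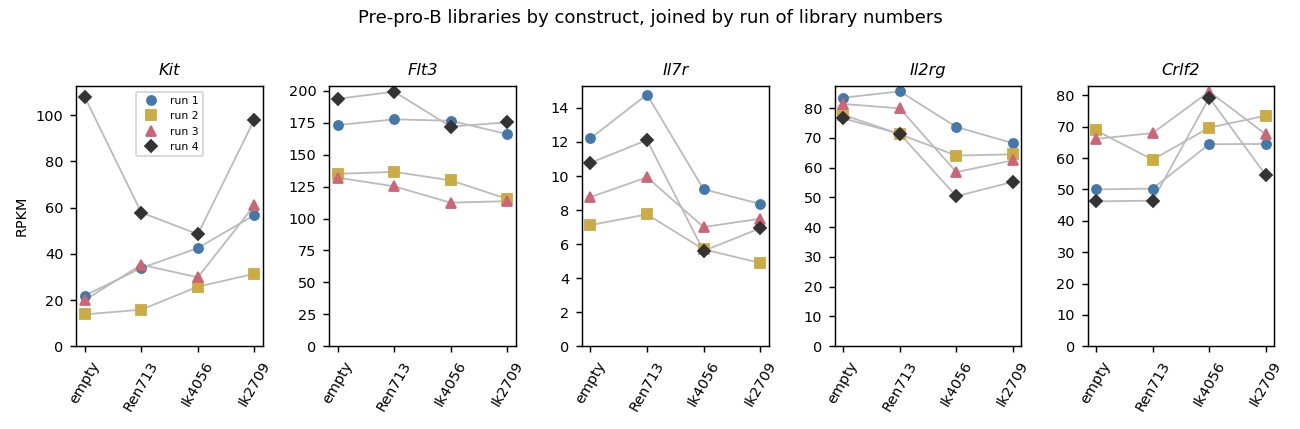
RPKM (y axes, linear, from 0) of each receptor gene in the 16 pre-pro-B libraries, by construct (x axis); grey lines join the libraries of a run. Il7r and Il2rg fall from both controls to both hairpins in each run, and the empty vector library of run 4 stands apart for Kit at 108 RPKM.

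Markers of myeloid cells moved with the knock-down. The 9 neutrophil, monocyte and macrophage markers summed to 26.4 to 120 RPKM in controls and 470 to 1348 with hairpins, led by Prtn3, while S100a8 and S100a9 were at 0. The 8 mast cell and basophil markers summed to 1.20 to 2.87 in controls and 4.27 to 14.5 with hairpins, with Fcer1a, Ms4a2 and Mcpt4 at 0 throughout. Stem and progenitor markers summed to 228 to 309 in controls and 369 to 541 with hairpins, mostly Cd34, and T and innate lymphoid markers to 468 to 757 in controls and 211 to 386 with hairpins, mostly Thy1. The part of these shifts in the receptor genes was not tested.

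Of 14 other blood cytokine receptor genes, 8 were higher and 0 lower in the knock-down (median log2 0.51, all genes 0.01), where 19.4% of all genes were called. They were led by Csf1r, from 0.522 to 20.4 RPKM, and Il6ra, from 2.54 to 12.7. Csf1r passed the filter through the hairpin libraries, so it could only come out higher and adds to that count by selection. Of 7 genes of receptors related to the gamma chain, 3 were higher and 2 lower. Il13ra1, among the higher, had means of 0.0211 RPKM in controls and 0.752 with hairpins. It too passed through the hairpin libraries and could only come out higher. Il4ra rose from 26.2 to 50.8 RPKM and Il2ra fell from 3.65 to 1.92. IL-7 receptor signalling genes were 4 higher and 1 lower of 16 (median 0.11), the lower one being Socs1. KIT and FLT3 signalling genes were 7 higher and 3 lower of 24 (median 0.18), with Sh2b2, an adaptor, going from 14.9 to 33.6 RPKM. Gab1, among these 7, had means of 0.461 RPKM in controls and 1.81 with hairpins. Its control mean lay below the filter of 1 RPKM, so it may also add to that count by selection. Of 22 transcription factor genes 8 were higher and 5 lower, Ikzf1 among the lower.

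Il7r thus went up with deletion in pro-B cells and down with knock-down in pre-pro-B cells. The difference of the 2 effects, a test added after these signs were seen, was -1.87 (SE 0.37, limma adjusted p = 5.2e-04 in a fit of all 30 libraries, 19.2% of genes called). Of the other 4 genes none was called in that test; Il2rg came nearest (-0.43, adjusted p = 0.0571). Deletion and knock-down also differ in stage, genotype and residual Ikzf1.

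Genes most like each member were taken by Pearson's r of group mean log2 values over the 11 groups, among 9967 models, as a description in which groups share library runs. Kit was nearest Rsph3b (r = 0.96), Lrrc75a (0.96) and Cand2 (0.95). Flt3 was nearest Tns1 (0.99), Sema4c (0.99) and Haghl (0.99), all with their highest mean in a pre-pro-B group. Il7r was nearest H2-Q7 (0.99), Myb (0.98) and H2-Q6 (0.98); Myb ranged from 123 to 360 RPKM. Il2rg was nearest Dctn6 (0.98), Adgre1 (0.97) and Setd4 (0.97), and Crlf2 was nearest Pex11g (0.91), Trpc4ap (0.89) and Cgrrf1 (0.89). Among the members, r was 0.81 for Flt3 with Il2rg and 0.80 for Flt3 with Crlf2, and -0.27 for the 2 chains of the IL-7 receptor.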

How the data were processed

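RNA was measured in 30 libraries of 11 groups taken from the labels; the 18 chromatin libraries were not analysed here. Polyadenylated RNA gave strand-specific single-end libraries, per the labels' protocols. DESeq 1.8.3, HTSeq 0.5.3, TopHat 1.4.1 and the mm9 build are named in the submitters' processing notes. The deposited values are RPKM as the authors computed them; other steps are not given in the sources used here.

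Read totals were recovered where RPKM values were whole multiples of 1 read within 0.01 read, and served as description. Differences were fitted with limma 3.58.1 (R 4.3.3, intensity trend, robust) on log2(RPKM + 1), which understates changes of low genes, over genes with at least 1 RPKM in at least 2 libraries: 11937 in the 14 pro-B and pre-B libraries, 10744 in the 16 knock-down libraries and 12272 in all 30. All 5 members passed in each fit. Tests were two-sided, with Benjamini-Hochberg adjustment over all genes and calls under 0.05; intervals are 95%. Scripts were tested on simulated data. Named genes are the members, up to 3 called genes per list and comparison with the largest change, and the 3 genes most like each member; Ikzf1, ligand, Csf1r, Il4ra and marker values outside that rule were picked after their values were seen. Members and lists were chosen with earlier results of these data known. Of 24 same-run pairs of knock-down libraries, all deviated together (r at least 0.52, median 0.775, between runs -0.22), and 16 of 16 libraries correlated best with their own run, so runs pair them, although the labels state no shared day. Python 3.11.15, pandas 2.3.3, numpy 2.4.6 and matplotlib 3.10.9 were used. Alternatives were other pseudocounts, filters, scalings, fits and moderation, the block, and leaving out each library.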

Additional observations from a re-analysis of the deposited data

Results flagged for a closer look

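The empty vector library of run 4 was at 108 RPKM for Kit, against 13.8, 20.0 and 21.9 in the other 3 libraries of that construct; the gap was 0.914 of the range, above Dixon's critical value for 4 samples. Of 20 gene and group combinations with 4 libraries, this was the only one past that value, and chance gives about 1 in 20.

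Of 20 differences of effect tested for the members, 3 were called by limma. Of all genes, 6.7% were called in the c-Kit-high minus pro-B effect and 13.1% in the Rag2-null minus pro-B effect. The shares were 6.33% in the Rag2-null minus c-Kit-high effect and 19.2% in the knock-down minus pro-B deletion effect. The count of 3 is thus not set apart from that of all genes. The Rag2-null deletion effect on Crlf2 was lower than the pro-B effect by 0.99 (log2 -0.99, adjusted p = 0.00878), and it was called under all 17 alternatives run, with adjusted p of 0.00593 to 0.0408. The Rag2-null effect on Kit exceeded the c-Kit-high effect by 1.15 (adjusted p = 0.0238) and was not called under 8 of 17 alternatives. The c-Kit-high cells of both genotypes were sorted on the KIT protein, so this difference cannot be told apart from the sort. The Il7r effect of the knock-down minus that of the pro-B deletion was -1.87 (adjusted p = 5.2e-04), called under all 28 alternatives run. That test was added after the opposite signs were seen, so neither its call nor the alternatives are independent of them. Stage, genotype and library runs also differ between these effects.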

How the results depend on the processing

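Member differences were recomputed 1501 times, of which 1326 kept direction and side of the threshold, 56 lost a call, 56 gained one and 56 changed sign, none of these a called value. The cause was not tested unless fewer libraries or genes entered. Values are log2 differences. Without a filter on low values, calls were lost for Kit 0.62 (pro-B deletion), Kit 1.15 (Rag2-null minus c-Kit-high effect), Flt3 -0.72 (pre-B against c-Kit-high), Crlf2 0.37 (pre-B against pro-B). With median-ratio scaling, calls were lost for Kit 0.54 (pro-B deletion), Il2rg -0.35 (Ik2709), Flt3 -0.58 (pre-B against c-Kit-high), and calls were gained for Il2rg -0.39 (Rag2-null deletion), Il7r -0.61 (Ik4056), Il7r -0.54 (Ik2709), and signs changed for Il2rg -0.0683 (Rag2-null minus c-Kit-high effect), Flt3 -0.0103 (Ik4056 against Ik2709), and untested values moved to Kit -3.14 (pre-B against c-Kit-high). With all 30 libraries in one fit, calls were lost for Kit 0.62 (pro-B deletion), Kit 1.27 (Rag2-null deletion), Kit 1.15 (Rag2-null minus c-Kit-high effect), Crlf2 0.37 (pre-B against pro-B), and calls were gained for Crlf2 0.29 (knock-down), Crlf2 0.38 (Ik4056). With a pseudocount of 0.1, calls were lost for Flt3 1.49 (c-Kit-high deletion), Flt3 -0.91 (pre-B against c-Kit-high), and calls were gained for Flt3 2.37 (Rag2-null deletion), and signs changed for Flt3 0.88 (Rag2-null minus c-Kit-high effect), and untested values moved to Kit -3.65 (pre-B against c-Kit-high). With a pseudocount of 0.5, calls were lost for Flt3 -0.81 (pre-B against c-Kit-high), and calls were gained for Flt3 1.07 (Rag2-null deletion), and untested values moved to Kit -3.48 (pre-B against c-Kit-high). On the TPM scale, calls were lost for Il7r -0.54 (knock-down), Il2rg -0.32 (Ik2709), Flt3 -0.84 (pre-B against c-Kit-high), and calls were gained for Flt3 1.14 (Rag2-null deletion), Crlf2 0.31 (knock-down), Crlf2 0.41 (Ik4056), Il2rg 0.38 (c-Kit-high against pro-B), and signs changed for Il7r 0.012 (Ik4056 against Ik2709), Kit -0.19, Il2rg -0.15 (Rag2-null against pro-B control), and untested values moved to Kit 1.02 (c-Kit-high against pro-B), Kit -3.52 (pre-B against c-Kit-high). After quantile normalization, calls were lost for Flt3 -0.46 (pre-B against c-Kit-high), and calls were gained for Crlf2 0.31 (knock-down), Il7r -0.65, Crlf2 0.41 (Ik4056), Il7r -0.56 (Ik2709), and signs changed for Il7r -0.11 (Rag2-null minus c-Kit-high effect), Flt3 -0.00289 (Ren713 against empty vector), Crlf2 0.00631 (knock-down minus pro-B deletion effect). With the run as a replicate block (the pairing), calls were gained for Flt3 -0.14, Crlf2 0.29 (knock-down), Il7r -0.53, Crlf2 0.38 (Ik4056), Kit 0.89, Flt3 -0.16, Il7r -0.52 (Ik2709). Without run 4, calls were lost for Il7r -0.44 (knock-down), Il2rg -0.29 (Ik2709), and calls were gained for Kit 0.80 (knock-down), Kit 1.08 (Ik2709). With the replicate block and without run 4, calls were gained for Kit 0.80, Crlf2 0.22 (knock-down), Kit 0.52, Il7r -0.40, Crlf2 0.25 (Ik4056), Kit 1.08, Flt3 -0.16, Il7r -0.47 (Ik2709). With the replicate block after quantile normalization, calls were gained for Crlf2 0.31 (knock-down). With plain moderation, calls were lost for Crlf2 0.37 (pre-B against pro-B). With the compared libraries alone, calls were lost for Kit 1.15 (Rag2-null minus c-Kit-high effect), Flt3 -0.72, Il2rg 0.40 (pre-B against c-Kit-high), and calls were gained for Il7r -1.05 (c-Kit-high minus pro-B effect), Crlf2 -0.39 (pre-B against c-Kit-high). With consecutive library numbers only, signs changed for Crlf2 0.11 (c-Kit-high deletion), and untested values moved to Flt3 0.80, Il7r 0.66 (c-Kit-high deletion). Leaving out 1 library at a time gave these ranges of log2 differences where a call or sign changed: pro-B deletion Kit 0.54 to 0.69, Il7r 1.30 to 1.39, c-Kit-high deletion Kit -0.0938 to 0.33, Crlf2 -0.30 to 0.15, Il2rg -0.42 to -0.0853, Rag2-null deletion Il7r -0.27 to 1.05, Crlf2 -0.81 to -0.53, c-Kit-high minus pro-B effect Flt3 0.51 to 1.49, Rag2-null minus pro-B effect Kit 0.36 to 0.95, Il7r -1.62 to -0.29, Rag2-null minus c-Kit-high effect Il7r -0.57 to 0.76, Kit 0.86 to 1.45, Il2rg -0.16 to 0.18, Flt3 -1.12 to -0.15, knock-down Crlf2 0.24 to 0.34, Kit 0.38 to 0.86, Ik4056 Il7r -0.66 to -0.45, Crlf2 0.33 to 0.44, Flt3 -0.20 to 0.0127, Il2rg -0.44 to -0.26. The same held for Ik2709 Il2rg -0.36 to -0.26, Il7r -0.61 to -0.38, Kit 0.63 to 1.20, Ik4056 against Ik2709 Flt3 -0.0452 to 0.18, Il7r -0.14 to 0.0779, Il2rg -0.12 to 0.0599, Ren713 against empty vector Flt3 -0.11 to 0.11, Crlf2 -0.14 to 0.0513, Kit -0.16 to 0.80, c-Kit-high against pro-B Il2rg 0.0598 to 0.39, pre-B against c-Kit-high Flt3 -1.20 to -0.23, Il7r -0.14 to 0.30, Il2rg 0.23 to 0.56, pre-B against pro-B Crlf2 0.31 to 0.44, Rag2-null against pro-B control Kit -0.22 to 0.37, knock-down minus pro-B deletion effect Kit -0.24 to 0.24, Crlf2 -0.15 to 0.0766, Il2rg -0.48 to -0.39. Run 4 was left out, and the block joined with quantile normalization, after seeing the data. The block changed no other member's call. No paired analysis was possible because sorted-cell groups share no replicate numbers in the labels. The median of all genes moved by over 0.1 on the TPM scale, to 0.20 in the Rag2-null deletion, 0.22 in c-Kit-high against pro-B, -0.33 in Rag2-null against pro-B controls, -0.28 in pre-pro-B against pro-B, 0.046 in pre-B against pro-B, and 0.16 and 0.19 in the differences of the Rag2-null effect from the pro-B and c-Kit-high effects. Counts of called genes moved by over 1.5 times: with the block from 2086 to 5575 (knock-down), 2031 to 5478 (Ik4056), 1254 to 4060 (Ik2709), 358 to 2407 (between hairpins) and 0 to 9 (between controls). With the block and without run 4 they were 4548, 4426 and 3251, and after quantile normalization 6011 in the knock-down. With the compared libraries alone they were 1350 (c-Kit-high deletion), 1547 (Rag2-null deletion), 276 (Rag2-null minus c-Kit-high effect) and 163 (between hairpins), and 1954 with all 30 libraries for Rag2-null against pro-B. Leaving out 1 library gave pro-B deletion 1688 to 1915 (all libraries 2791), c-Kit-high deletion 1322 to 2117 (all libraries 2049), Rag2-null deletion 1577 to 2509 (all libraries 2667), c-Kit-high minus pro-B effect 327 to 1036 (all libraries 800), Rag2-null minus pro-B effect 918 to 1533 (all libraries 1562), Rag2-null minus c-Kit-high effect 361 to 1038 (all libraries 756), Rag2-null against pro-B control 2167 to 3561 (all libraries 3777). Depth limits Flt3 most, at 4 to 26 reads in the pro-B libraries.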
